A study of Mus musculus with 6 samples.

Results

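The small-intestinal epithelium of arthritic littermate control mice is described here from 3 control libraries, of 6 RNA-seq libraries in the whole set. They were chosen by their genotype label alone, and no measured value entered that choice. The control libraries carry the label HIF2α +/- F/F (littermate control), where F/F is the usual notation for a floxed gene. The other 3 come from mice with an intestine-specific knockout of HIF2α, labelled HIF2α +/- ΔIEC. The sources used here do not say what +/- means in either label, so whether the controls keep every copy of HIF2α intact is not known. All mice, controls included, were in the collagen-induced arthritis model, where injected collagen provokes inflamed joints, so no library shows an epithelium without arthritis. Age, sex and the stretch of small intestine taken are not given, and nothing in the labels says that the 3 control libraries came from separate mice, so part of the spread between them may be technical.

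The small-intestinal epithelium is renewed from stem cells at the base of the crypts. Most of its cells are absorptive enterocytes, which digest and take up nutrients at a brush border of microvilli. Goblet cells secrete mucus, Paneth cells at the crypt base secrete antimicrobial peptides, enteroendocrine cells secrete hormones, and tuft cells sense luminal chemicals. Along the gut, the duodenum is specialised for iron, calcium and sugar uptake, and the ileum for the return of bile acids. Lymphocytes lie between the epithelial cells and usually come along when the epithelium is isolated.

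The 3 libraries held 38454620, 35686871 and 37255785 reads counted in genes. A gene counted as expressed at 1 CPM (reads of the gene per 1000000 counted reads) or more in all 3, which held for 11385 of 55298 genes. The least abundant of them had 36 to 39 reads in a library, and a count of 0 in a library allows a level of up to 0.0780, 0.0841 or 0.0805 CPM (3 reads), for counting error only. Levels are compared between genes only as TPM, the counts divided by the exon length of each gene and scaled to a sum of 1000000 in each library. Where a sentence gives 3 values of a gene or list, they are those of control libraries 1, 2 and 3, in that order. Spread is the ratio of the highest to the lowest library in CPM. Its median over the expressed genes was 1.57-fold, 25.2% of genes spread by 2-fold or more, and 43.3% by 1.5-fold or less. Genes with a 2-fold spread and the lowest value in control library 1 made up 21% of all expressed genes, those with the highest value in control library 2 made up 3.93%, and those with the highest value in control library 3 made up 20.2%. These shares are the background for the counts of list members given below. After correction for GC content and length, 1463 of 11384 genes spread by 2-fold or more. Of these, 61.04% were lowest in control library 1 and 39.6% highest in control library 3. They are the background for counts after that correction.

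The libraries stand apart in their sex-linked transcripts. Xist, the RNA that silences an X chromosome in female cells, had 1498, 10 and 1665 reads in control libraries 1, 2 and 3. The summed reads of 4 Y-linked genes (Ddx3y, Uty, Kdm5d and Eif2s3y) were 2, 378 and 528. Control library 1 thus held Xist almost alone, control library 2 Y-linked transcripts, and control library 3 both, at the highest level of the 3 for each of the 5 genes. Control libraries 1 and 2 therefore cannot be repeats of 1 mouse. The cause of the mixture in control library 3 was not tested, and several of the counts, shares and list levels below are given also without it. Epas1 (ENSMUSG00000024140.10), which encodes HIF2α, the gene deleted in the knockout mice, was expressed at 9.15, 16.8 and 16.1 CPM in the 3 control libraries.

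The label of the material was checked against markers. All 13 genes of the epithelial identity list were expressed, with a summed level of 28481, 27123 and 27656 TPM, a narrower range, relative to its mean, than that of most lists. Krt8, a keratin of simple epithelia, had 7867, 7768 and 7154 TPM, and Lgals4, an intestinal galectin, 4907, 4991 and 5336 TPM. Epcam, an adhesion molecule of epithelial cells, was less even, at 487, 942 and 1569 TPM. Markers of smooth muscle and endothelium were at or near 0, and those of fibroblasts were low. The 8 smooth muscle genes summed to between 1.08 and 1.87 TPM with none expressed and Cnn1 at 0 reads in every library, and the 10 endothelial genes to between 1.45 and 2.54 TPM with 1 expressed and Emcn at 0 reads. The 10 fibroblast genes, 5 of them expressed, summed to 28.1, 40.1 and 29.6 TPM. Of these sums Thy1, also a surface protein of lymphocytes, gave 22.0, 27.1 and 18.97 TPM.

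Stretches upstream of 7 genes that stand out below are shown here, since these genes were among the most abundant or differed most between libraries. Each runs 5′ to 3′ on the strand of its gene, from 70 bases before the annotated start through the first 10 transcribed bases (RefSeq, GRCm38.p6), and capitals mark TATAAA, the core of a TATA box.
Defa21, chr8:21025475-21025554, plus strand: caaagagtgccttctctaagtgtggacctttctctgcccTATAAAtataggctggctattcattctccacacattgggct
Defa22, chr8:21162207-21162286, plus strand: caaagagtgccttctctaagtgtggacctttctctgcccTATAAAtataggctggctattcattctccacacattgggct
Defa30, chr8:21134580-21134659, plus strand: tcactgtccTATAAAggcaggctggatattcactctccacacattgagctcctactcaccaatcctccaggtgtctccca
Reg3b, chr6:78370815-78370894, plus strand: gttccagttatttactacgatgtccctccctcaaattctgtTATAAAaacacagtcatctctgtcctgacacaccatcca
Reg1, chr6:78425913-78425992, plus strand: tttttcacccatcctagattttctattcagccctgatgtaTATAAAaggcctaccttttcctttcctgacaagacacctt
Fabp6, chr11:43601553-43601632, minus strand: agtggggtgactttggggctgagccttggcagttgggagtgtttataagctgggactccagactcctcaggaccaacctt
Akp3, chr1:87124884-87124963, plus strand: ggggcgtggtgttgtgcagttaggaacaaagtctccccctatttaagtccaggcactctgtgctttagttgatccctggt

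The letters TATAAA began 31 bases before the start in Defa21 and Defa22, 29 in Reg3b, 30 in Reg1 and 61 in Defa30. On the strand of the gene and beginning 20 to 40 bases before the start, they were found in 3 of the 14 most abundant named genes (of 20) that have a listed promoter, against 1.42% of 8513 expressed genes and 2.22% of all 27025 genes listed. The letters GGGCGG, the core of a GC box, were searched on both strands of the 300 bases around the start. They were found in 2 of those 14 genes (14.3%), in 41.1% of 73 listed genes among the 100 most abundant, and in 66.1% of the expressed genes. Of 9 listed Paneth cell genes none held GGGCGG, against 15 of 16 listed genes of the cell cycle. The other lists searched were also below the share of expressed genes. It was held by 4 of 13 listed tuft cell genes, 3 of 13 of fat absorption and 3 of 15 brush border enzymes. The listed promoters of Defa21 and Defa22 were identical over all 300 bases. Those of Defa21 and Defa30 were 74.1% identical over 270 bases when shifted by 30. Copies as close as the first pair can share reads, so the split of reads among alpha-defensin genes is uncertain. Defa21 and Defa22 are also among the 3 of 14 genes with TATAAA in the window. There they count as copies of the same sequence rather than as separate instances.

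Reads counted in nuclear genes were spread over many genes rather than held by a few. The most abundant gene of each library held 1.76%, 1.32% and 1.06% of its reads. The 100 most abundant genes held 27.0%, 25.1% and 23.8% (25.3% ± 1.57, SD, n = 3), and 26.05% on average without control library 3. It took 455, 532 and 575 genes to reach 50% of the reads, and 3376, 3748 and 4112 genes to reach 90%. Control library 1 was the most concentrated by each of these measures and control library 3 the least. The widest 95% Wilson interval of such a share reached 0.0159 percentage points to either side, so counting error is far smaller than these differences. By level, 133 genes averaged 1000 CPM or more and held 28.5% of the reads, 1954 genes between 100 and 1000 CPM held 49.8%, 5175 genes between 10 and 100 CPM held 19.5%, and the 4123 genes below held 1.89%. Protein-coding genes were 94.9% of the expressed genes.

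**Figure D1:**
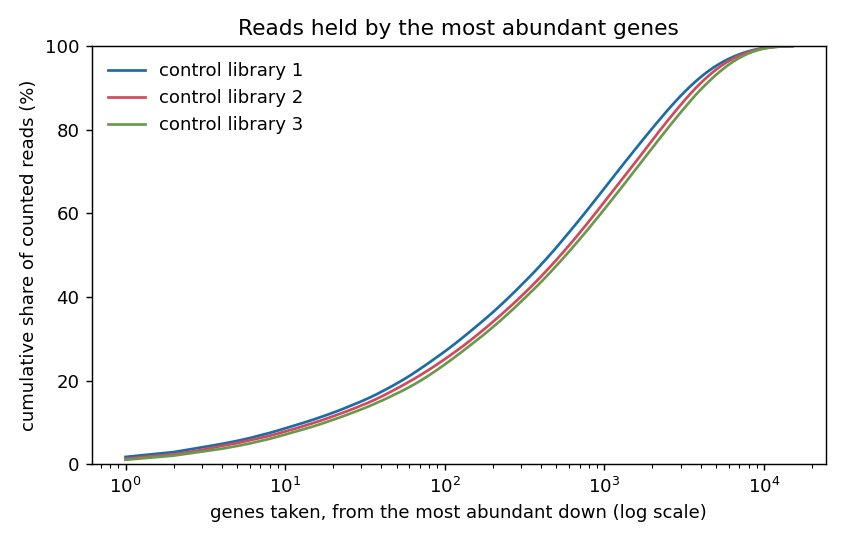
Cumulative share of counted reads (vertical axis, %) against the number of genes taken from the most abundant down (horizontal axis, log scale), 1 line for each control library. The line of control library 1 lies above the others, reaching 27.0% at 100 genes, where control libraries 2 and 3 reach 25.1% and 23.8%.

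Per unit of length, Paneth cell products led the transcriptome. Defa24 (ENSMUSG00000064213.5, GRCm38 chromosome 8, 21734494 to 21735471), an alpha-defensin that kills bacteria in the crypt, had 57786, 53568 and 52404 TPM (54586 ± 2832, SD, n = 3) and ranked 1 in every library. Defa30 followed with 29776, 21585 and 23392 TPM, Defa21 had 15425, 8883 and 9182 TPM, and Defa22 had 14177, 7238 and 7187 TPM. The last 3 were highest in control library 1. Alpha-defensin genes, 12 of 22 expressed, took 12.5%, 9.77% and 9.84% of all TPM and, their annotated exons being short, 1.98% ± 0.36 of the reads (SD, n = 3). A further pair of genes with predicted names only, Gm14851 at 13194 ± 832 TPM and AY761184 at 11576 ± 1906 TPM, lie on chromosome 8 between Defa21 and Defa24.

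The Paneth cell list as a whole, 13 of 13 genes expressed, summed to 134082, 110783 and 116983 TPM, the highest of the 33 lists on this scale. With median transcript length in place of exon length it averaged 51745 TPM, still above fat absorption at 28387 TPM, whereas summed CPM, not per length, was 27319 for the Paneth cell list and 31922 for fat absorption. Its members took opposite orders. Lyz1, the Paneth cell lysozyme, had 3217, 6065 and 9308 TPM, and Ang4, a bactericidal ribonuclease, 2360, 2863 and 4633 TPM. Mmp7, the protease that activates mouse alpha-defensins, had 214, 313 and 475 TPM. These 3 were highest in control library 3 and lowest in control library 1, where the abundant defensins were highest. Of the 13 genes, 4 spread by 2-fold or more, against 25.2% of all expressed genes, 3 of them lowest in control library 1 and highest in control library 3. After correction for GC content and length Lyz1, Ang4 and Mmp7 kept that order with smaller ratios between the highest and lowest library, of 1.51-fold, 1.10-fold and 1.16-fold. The 4 genes that then spread by 2-fold or more, Defa21, Defa22, Defa26 and Defa30, were all highest in control library 1 and lowest in control library 3. Of all genes, 1463 of 11384 spread that far after the correction. Over all 13 genes, 9 were then highest in control library 1 and 4 in control library 3. Without control library 3 the list averaged 122432 TPM.

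The most abundant enterocyte transcripts were those of fat transport. Apoa1, the apolipoprotein of high-density lipoprotein, had 30578, 18715 and 18698 TPM. By reads it had the highest mean of all nuclear genes, at 12551 ± 4337 CPM (SD, n = 3), through 17558 CPM in control library 1. Apoa4, an apolipoprotein put onto chylomicrons during fat absorption, had 13686, 16572 and 13600 TPM, and exceeded Apoa1 in CPM in control libraries 2 and 3, with 13166 and 10648 CPM. Control library 1 was thus alone in its high Apoa1. Fabp2 and Fabp1, the fatty acid-binding proteins of enterocytes, ran the other way, with 1273, 1606 and 4558 TPM for Fabp2 and 1119, 2435 and 3163 TPM for Fabp1. Of the 18 fat absorption genes 17 were expressed, and they summed to 52714, 44914 and 45191 TPM (48814 TPM on average without control library 3). Of the 17, 4 spread by 2-fold or more, against 25.2% of all expressed genes. After correction for GC content and length 2 did, against 1463 of 11384 genes. Dgat1 and Mogat2, enzymes that rebuild triglyceride, stood at 1066 ± 177 and 853 ± 165 TPM. Mttp, which loads lipid onto apolipoprotein B, had 72.2, 102 and 190 TPM, and Apob itself 33.3 ± 5.97 TPM. Cd36, a fatty acid transporter, was low and even at 3.23 ± 0.17 TPM.

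The other leading transcripts came from the mucus layer, the cytoskeleton and surface defence. Tff3, a trefoil peptide of goblet cells, had 6061, 8483 and 5705 TPM, and Zg16, a goblet cell lectin, 4097, 9459 and 6018 TPM. Reg3b, a bactericidal lectin, had 3505, 5583 and 6898 TPM. Actb, cytoplasmic actin, was even at 5467, 5627 and 5933 TPM. The 20 most abundant named genes together held 24.6%, 22.1% and 21.5% of all TPM, and all 20 were within the first 40 ranks of each library. Their order was not fixed: of 19 pairs of neighbours in the ranking by mean, 3 were ordered alike in all 3 libraries, so most neighbours could not be told apart. Rplp1, of the large ribosomal subunit, was the only ribosomal protein gene among the 20, while 79 expressed genes of cytosolic ribosomal proteins together took 4.86% ± 0.48 of the reads (SD, n = 3).

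**Figure D2:**
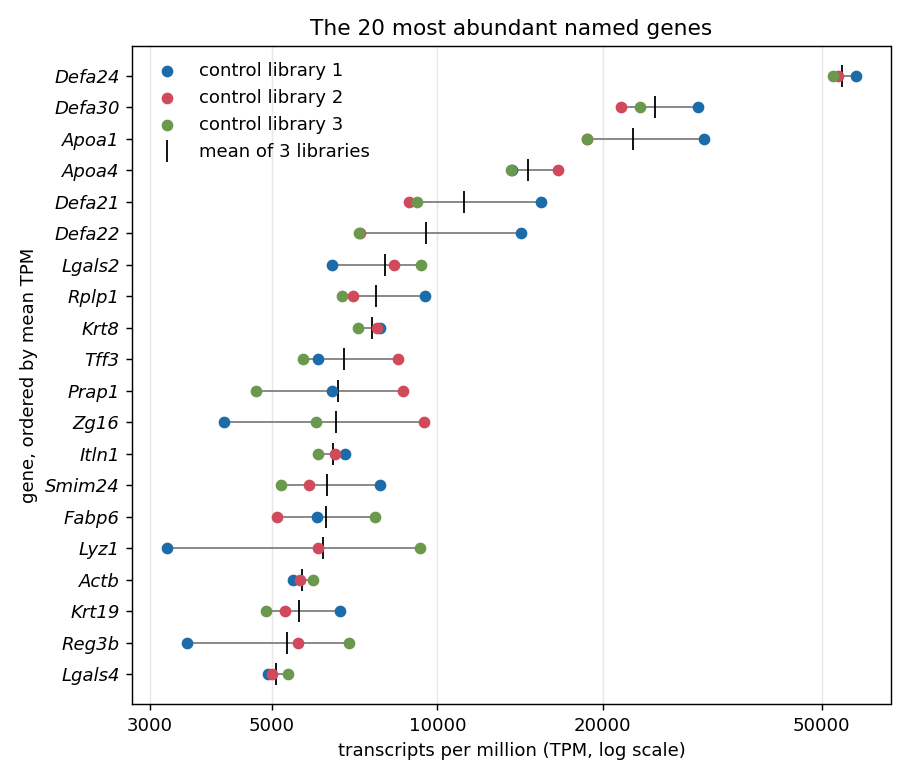
Level in TPM (horizontal axis, log scale) of the 20 named genes with the highest mean TPM, with 1 point for each control library and a tick at the mean of the 3. Defa24 lies between 52404 and 57786 TPM, above every other gene, while Lyz1 runs from 3217 to 9308 TPM and overlaps most genes of the lower part.

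Genes of absorption were nearly all expressed. Of 18 brush border enzymes 17 were expressed, with a summed level of 8725, 9913 and 9205 TPM. The aminopeptidase Anpep had the highest mean, with 2399, 2393 and 3283 TPM, and Naaladl1, a peptidase, exceeded it in control library 1, with 2768, 1700 and 1977 TPM. Among the disaccharidases, trehalase (Treh) had 405 ± 84.1 TPM, lactase (Lct) 395 ± 77.7 TPM and sucrase-isomaltase (Sis) 72.8 ± 15.5 TPM. All 12 genes of brush border structure were expressed, and they summed to 7780, 8192 and 9696 TPM. Among them Cdhr2, a protocadherin that links microvilli, had 1736, 1759 and 1751 CPM and was among the 10 evenest genes by the ratio of libraries. Ezr, the ezrin that ties actin to the membrane, was not even, at 262, 597 and 910 TPM. All 16 nutrient transporters were expressed, with a sum of 2279, 2361 and 3211 TPM. Slc5a1, the sodium-glucose transporter, had 351, 468 and 967 TPM, and Slc15a1, the peptide transporter, 49.5, 47.3 and 133 TPM, highest in control library 3. Of the 16 transporters 8 spread by 2-fold or more, above the share of all genes. After correction for GC content 2 did, near the share of all genes then, 1463 of 11384.

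All 14 goblet cell genes were expressed, and they summed to 17972, 27438 and 20429 TPM. Muc2, the secreted gel-forming mucin, had 451, 772 and 719 TPM. Spink4, a protease inhibitor of goblet cells, had 4986 ± 244 TPM, and Spdef, a transcription factor of their maturation, 76.1 ± 14.8 TPM. The enteroendocrine list summed to 1478, 1622 and 1571 TPM, the narrowest range, relative to its mean, of the 4 secretory lists. Its members were less even than this sum. Of 18 expressed, 7 spread by 2-fold or more, against 25.2% of all expressed genes. Their median spread was 1.87-fold, against 1.57-fold over all expressed genes. Gip, the duodenal and jejunal incretin hormone, led at 403, 501 and 502 TPM. Sct (secretin) had 262 ± 30.4 TPM, Cck (cholecystokinin) 78.2, 131 and 62.8 TPM, and Sst (somatostatin) 122, 112 and 45.6 TPM. Control library 3 was lowest for Cck and Sst. Of the 18 expressed members, 8 were lowest and 5 highest in that library.

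Crypt genes were low. The 15 stem cell genes summed to 360, 358 and 453 TPM. Olfm4, a crypt-base glycoprotein, had 130, 66.8 and 140 TPM. Lgr5, the Wnt-pathway receptor that marks crypt stem cells, had 0.40, 0.35 and 0.39 TPM, while Axin2, a Wnt target, had 46.8 ± 12.3 TPM. The cycling list, 18 of 18 expressed, summed to 636, 717 and 742 TPM. Within it Cdc20, an activator of the anaphase complex, had 186 ± 26.1 TPM, and Mki67, the Ki-67 antigen, 4.47, 2.62 and 2.65 TPM. In bulk RNA, fewer cells of a type and less RNA per cell cannot be told apart, here and for every cell type below.

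All 23 transcription factors listed for the intestine were expressed, and they summed to 4092, 4152 and 4533 TPM. Elf3, an epithelial ETS factor, led at 1198, 983 and 879 TPM. The caudal factors of intestinal identity were high too, Cdx1 at 691, 579 and 554 TPM and Cdx2 at 412, 397 and 433 TPM, with Creb3l3, a factor of lipid metabolism, between them at 582, 487 and 470 TPM in control libraries 1, 2 and 3. Cdx2 was among the evenest of them. Hnf4a, an enterocyte differentiation factor, had 177, 360 and 546 TPM, and its paralogue Hnf4g 16.7 ± 2.86 TPM. Klf4, which acts in differentiated cells, had 50.6, 149 and 247 TPM, and Klf5, which acts in the proliferating crypt, 47.6, 119 and 168 TPM. Of the 23 factors 11 spread by 2-fold or more, 10 of them lowest in control library 1 and 10 highest in control library 3, against 21% and 20.2% of all expressed genes. After correction for GC content and length 8 did, against 1463 of 11384 genes. Of these 8, 5 were lowest in control library 1 and 5 highest in control library 3.

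Genes of both ends of the small intestine were abundant in every library. At the proximal end, Rbp2, the retinol-binding protein of enterocytes, had 3364, 3989 and 4739 TPM, and Gata4, a transcription factor of duodenum and jejunum that is missing from the terminal ileum, 200, 228 and 186 TPM. At the distal end, Fabp6, the ileal bile acid-binding protein, had 6037, 5101 and 7693 TPM, and its bile acid export partners Slc51a and Slc51b had 268 ± 39.1 and 251 ± 123 TPM. Defining genes of both ends were thus read in every library. The 14 proximal genes summed to 6741, 8694 and 9998 TPM and the 14 distal genes to 7123, 6112 and 9423 TPM. Without control library 3 these averaged 7717 and 6617 TPM.

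Members of the distal list parted from each other. Slc10a2, the bile acid uptake transporter of the ileal brush border, had only 0.73, 0.82 and 2.25 TPM, far below Fabp6. Fgf15, the ileal hormone that bile acids induce, had 42.5, 6.07 and 25.9 TPM, and Nr0b2, another bile acid-induced gene, 37.3, 15.7 and 17.9 TPM. Both were lowest in control library 2. Nr1h4, the bile acid receptor itself, had 10.9, 17.4 and 33.8 TPM. Pyy, a hormone of distal enteroendocrine cells, had 89.4, 41.2 and 44.0 TPM. Of the 14 distal genes 9 spread by 2-fold or more, above the 25.2% of all genes, and the median spread of the list was 2.31-fold, against 1.57-fold over all expressed genes. After correction for GC content and length 6 spread by 2-fold or more, against 1463 of 11384 genes. Of these 6, 5 were lowest in control library 2. The 12 colon genes summed to 37.1, 90.3 and 26.01 TPM, with Aqp8, a water channel, at 10.8, 71.7 and 7.16 TPM. Of them 4 were expressed, and Car1, Hoxa13, Hoxd13 and Scnn1g had 0 reads in every library.

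Some genes of the duodenum were far higher in control library 2 than in the other libraries, where they were still expressed. Akp3 (ENSMUSG00000036500.4, GRCm38 chromosome 1, 87124973 to 87127912), an alkaline phosphatase of the mouse duodenum whose upstream stretch is shown above, had 1416 TPM in control library 2, against 26.3 and 13.96 TPM in control libraries 1 and 3. Its 103-fold spread was the widest of all 5481 named genes that averaged 20 CPM or more. S100g, the vitamin D-dependent calcium-binding protein of the duodenum, was next with 187 CPM in control library 2, against 7.80 and 4.46 CPM. Both genes separated that library from the other two by more than 20-fold, while the other alkaline phosphatase gene, Alpi, had 2052 TPM there against 918 and 1127 TPM.

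Less abundant duodenal genes were highest in the same library. Pdx1, a transcription factor of duodenum and pancreas, had 27.9 TPM in control library 2, against 0.34 and 1.79 TPM in control libraries 1 and 3. Slc40a1, the iron exporter ferroportin, had 2.45 TPM there, against 0.11 and 0.37 TPM, and Cybrd1, the duodenal ferric reductase, 1.89 TPM, against 0.86 and 0.79 TPM. Tmprss15, the enteropeptidase that activates trypsinogen, had 1.26 TPM there, against 0.067 and 0.21 TPM. Pdx1, Slc40a1 and Tmprss15 were below 1 CPM in control library 1, with 13, 18 and 5 reads, so they do not count as expressed. Reg1, a regenerating-family lectin that is not on the proximal list, was highest there too, with 537 TPM in control library 2, against 21.5 and 164 TPM. The pattern did not hold for the whole proximal list: of its 12 expressed genes 5 spread by 2-fold or more, against 25.2% of all expressed genes. Of the 12, 2 spread that far with control library 2 highest, against 3.93% of all expressed genes. After correction for GC content and length 2 of the 12 spread by 2-fold or more, against 1463 of 11384 genes. Both were highest in control library 2 and lowest in control library 3. Before that correction Fabp1, Rbp2 and Lct were highest in control library 3.

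Transcripts of pancreatic acinar cells were read in control library 2. The 9 acinar genes other than Clps summed to 653 reads (18.3 CPM) there, against 8 and 4 reads in control libraries 1 and 3. Ctrb1, chymotrypsinogen B, had 145 reads there, against 7 and 1, Cela2a, an elastase, 107, against 0 and 0, and Prss2, a trypsinogen, 89, against 0 and 0. All 9 genes were highest in control library 2. Trypsinogen genes have close copies, so their single counts are uncertain. Clps, colipase, differed from the rest in having 1362, 879 and 683 TPM, highest in control library 1. The part of the stretch of gut taken, or of other tissue in the sample, in the values of control library 2 was not tested.

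**Figure D3:**
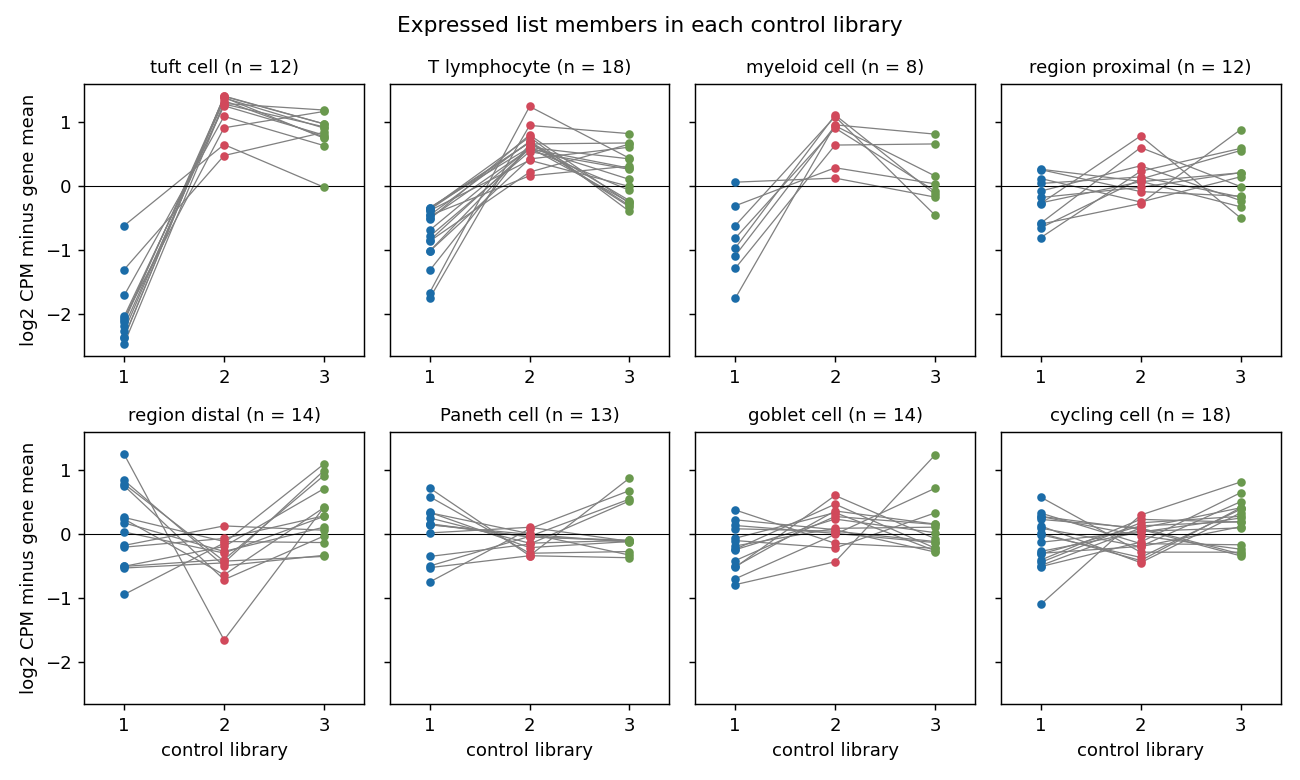
Log2 CPM of each expressed member of 8 gene lists minus the mean of that gene over the 3 control libraries (vertical axis), by control library (horizontal axis), with each grey line joining the values of 1 gene. All 12 expressed tuft cell genes lie below 0 in control library 1, whereas the members of the Paneth cell, goblet cell and cycling lists lie on either side of 0 in each library.

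The tuft cell list had the widest ratio between libraries of the 33 summed levels. Its 17 genes summed to 81.3 TPM in control library 1, 785 TPM in control library 2 and 574 TPM in control library 3. All 12 expressed members spread by 2-fold or more, against 25.2% of all expressed genes, and all 12 were lowest in control library 1, against 21%. In 10 of them control library 2 was highest, against 3.93%. The median spread was 10.9-fold, against 1.57-fold. All 17 members, expressed or not, were lowest in control library 1.

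Among these genes are a transcription factor, an ion channel and enzymes of lipid mediators. Pou2f3, the transcription factor that tuft cells need, had 1.32, 15.5 and 12.3 TPM. Trpm5, the cation channel of their taste-like signalling, had 5.51, 66.1 and 43.2 TPM. Alox5, which starts leukotriene synthesis, had 2.28, 32.9 and 24.7 TPM. In each of the 3 genes control libraries 2 and 3 lay close together, and control library 1 far below them. Dclk1, a kinase widely used to mark these cells, had 0.22, 1.82 and 2.21 TPM. Ltc4s, the leukotriene C4 synthase that other cells make too, spread least, with 20.5, 52.3 and 33.5 TPM. Il25, the cytokine through which tuft cells call up type 2 immunity, had 14, 33 and 54 reads. These ratios hardly moved with scaling, since all 12 stayed at 2-fold or more with control library 1 lowest under every scaling tried and after correction for GC content, with a median between 9.07-fold and 10.9-fold.

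Lymphocyte transcripts were lower in control library 1 too. The 20 genes of the T lymphocyte list, among which are those of the cells within the epithelium, summed to 1227, 3578 and 2220 TPM. Of the 18 expressed 15 spread by 2-fold or more, 14 of them lowest in control library 1, against 21% of all expressed genes, and 12 highest in control library 2, against 3.93%. Ccl5, a chemokine, had 384, 1012 and 491 TPM, Gzma, a granzyme, 163, 681 and 699 TPM, and Gzmb 54.0, 429 and 248 TPM. Gzma and Gzmb were therefore lowest in control library 1 like the tuft cell genes. Cd3e, of the T cell receptor complex, had 38.2, 77.7 and 43.6 TPM, and Cd8a 13.5, 44.1 and 39.5 TPM. After correction for GC content and length 13 of the 18 spread by 2-fold or more, against 1463 of 11384 genes. Of these 13, 10 were lowest in control library 1.

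Other leukocytes were at lower levels. The B and plasma cell list summed to 144, 435 and 446 TPM, nearly all of it immunoglobulin. Igkc, the kappa constant chain, had 70.2, 242 and 298 TPM, and Igha, the IgA heavy chain, 39.7, 141 and 121 TPM. Cd79a, of the B cell receptor complex, parted the libraries differently, with 9.84, 7.03 and 0.51 TPM, lowest in control library 3. The 14 myeloid genes summed to 29.7, 66.1 and 48.3 TPM. Of 8 expressed, 6 spread by 2-fold or more, against 25.2% of all expressed genes. All 6 were lowest in control library 1, against 21% of all expressed genes. C1qa, a complement protein of macrophages, was at 3.18, 10.96 and 3.83 TPM. Adgre1, the F4/80 antigen, was at or below 0.058 TPM. The erythroid list summed to 110, 194 and 155 TPM, and its globin genes have near-identical copies.

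Lists of villus zones, and of organs that should be missing, completed the picture. Genes of the lower villus, led by Reg3b and Lypd8, summed to 9177, 13660 and 13144 TPM, those of the middle villus to 1387, 1355 and 2026 TPM, and those of the villus tip, mostly Apoa4, to 15808, 19988 and 16880 TPM. Reg3g, a bactericidal lectin like Reg3b, had 270, 653 and 1117 TPM, and Ada, adenosine deaminase of the villus tip, 1146, 2343 and 1666 TPM. The microfold cell list summed to 58.0, 150 and 120 TPM. Its gene Spib, a transcription factor of these cells and of lymphocytes, had 14.8, 98.6 and 55.3 TPM, whereas Gp2, their defining uptake receptor, was at or below 0.42 TPM. Neuron and glia genes summed to 4.40, 4.27 and 3.61 TPM and stomach genes to 3.32, 7.20 and 2.81 TPM, with Gkn1, Gkn2, Muc5ac, Atp4b and Sox2 at 0 reads in every library. Of the liver list Ttr, transthyretin, had 14.6 ± 1.75 TPM, while Alb was at or below 0.055 TPM and Fgb and Mup20 had 0 reads.

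Gene families chosen with these values in view varied in evenness. Of 25 expressed cytochrome P450 genes 11 spread by 2-fold or more, as did 7 of 17 genes of the major histocompatibility complex, above the 25.2% of all expressed genes, whereas 12 of 86 expressed nuclear genes of oxidative phosphorylation did, below it. Cyp2b10, a drug-metabolising P450, had 62.3, 143 and 400 CPM.

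Genes that respond to the handling of tissue were expressed in each library. The 16 immediate early genes summed to 1785, 1885 and 1958 TPM. Fos, the early response factor, had 72.2, 177 and 274 TPM, and Jund 763, 642 and 621 TPM. The 11 heat shock genes summed to 813, 1087 and 1492 TPM. Most of that difference came from Hspa8, a constitutive chaperone, with 57.5, 180 and 364 TPM, and Hsp90ab1, with 491, 609 and 783 TPM, while the inducible Hspa1a had 1.34, 2.05 and 2.20 TPM.

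Over all genes, many of those with the widest spread showed the same patterns. Of the 10 widest, 3 were tuft cell list members, 7 were lowest in control library 1 and 9 were highest in control library 2. Of the 40 widest, 7 were tuft cell list members and 32 were lowest in control library 1. Among all 2864 genes with a 2-fold spread, 83.3% were lowest in control library 1 and 15.6% highest in control library 2. Being lowest in control library 1 was thus no commoner among the widest genes. Sh2d7, an adaptor protein gene, had 4.50, 85.9 and 60.1 CPM, and St3gal4, a sialyltransferase, 164, 2242 and 2268 CPM. Otop3, a proton channel, had 9.15, 78.2 and 6.52 CPM, the order of Akp3. A few took other orders: Mcpt2, a mucosal mast cell protease, had 7.57, 9.81 and 85.0 CPM, high in control library 3 alone, and Pla2g4c, a phospholipase, 98.9, 10.8 and 111 CPM, low in control library 2 alone. Rpl29 had 47.0, 40.9 and 376 CPM, but has many near-identical copies, so its count is uncertain.

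At the other end, some genes hardly differed between the libraries. Ehbp1l1, of membrane traffic, had 131, 131 and 132 CPM, and Atg4b, an autophagy protease, 95.1, 95.7 and 96.0 CPM. The 10 evenest, among them Snx17, Tubb4b and Mrps7, had a ratio of at most 1.02-fold. Evenness was commoner at higher levels: 28.1% of genes between 1 and 10 CPM and 28.4% of those between 10 and 100 CPM spread by 2-fold or more, against 11.4% of those between 100 and 1000 CPM and 9.02% of those at 1000 CPM or more.

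The spread between the control libraries was well above counting error. The median coefficient of variation was 23.2%, whereas counting alone gives 3.75%. The biological coefficient of variation from edgeR was 29.8%, and 26.8% without control library 3. Over the expressed genes, which are not independent of each other, the rank correlation of CPM was 0.970 between control libraries 1 and 2, 0.953 between 1 and 3 and 0.974 between 2 and 3. Chi-square per degree of freedom between pairs of libraries ran from 128 to 310, so no pair agreed within sampling noise. Of the 2864 genes with a 2-fold spread, 83.3% were lowest in control library 1 and 80.3% highest in control library 3. With DESeq2 size factors, which shift control library 1 by 0.13 and control library 3 by -0.16 on the log2 scale, 2254 genes spread that far, 63.9% of them lowest in control library 1 and 56.8% highest in control library 3. Without control library 3, 910 of 11490 genes spread by 2-fold or more, and without control library 1, 868 of 11810.

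The spread followed the base composition of the transcripts. With the genes cut into 10 equal groups by GC content, the group centred on 48.9% GC had a median deviation from the mean of the libraries of -0.39 in control library 1 and 0.46 in control library 3 on the log2 scale. In the group centred on 59.8% GC the order was turned round, with 0.20 in control library 1 and -0.23 in control library 3. In the first of these groups 44.7% of genes spread by 2-fold or more, and in the other 8.96%. The rank correlation across genes between GC content and a library's deviation was 0.37, 0.39 and -0.63, as a description with no test. After the GC and length trend of each library was removed, 1463 of 11384 genes spread by 2-fold or more, 61.04% of them lowest in control library 1 and 39.6% highest in control library 3. The correction also removes any true difference that follows GC content.

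**Figure D4:**
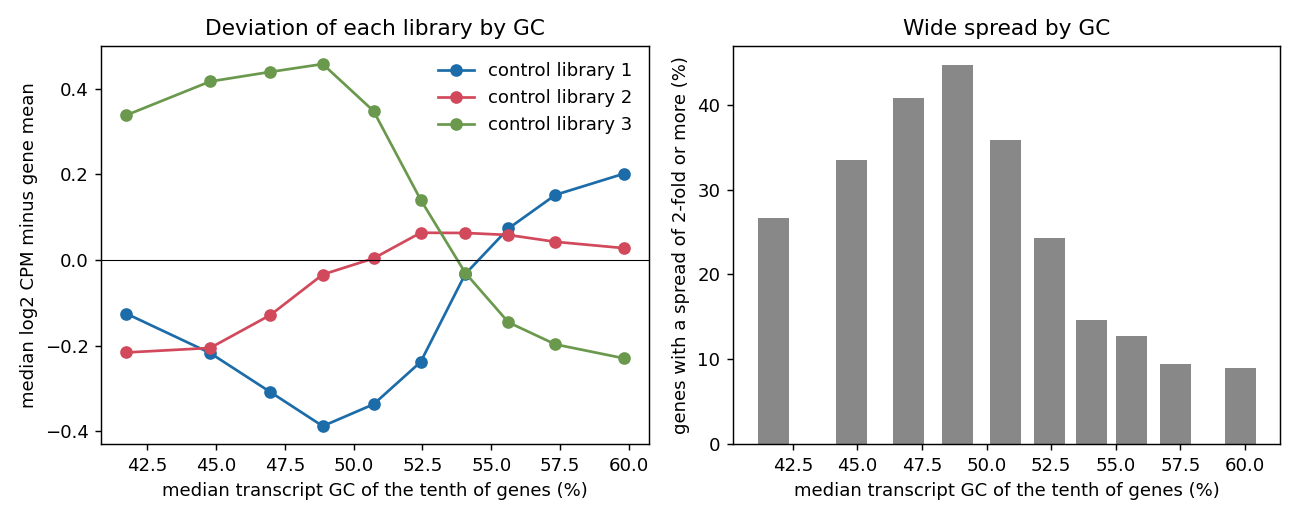
Left, median of log2 CPM minus the gene's mean over the libraries (vertical axis) in 10 groups of expressed genes by median transcript GC content (horizontal axis, %), 1 line for each control library; right, share of genes with a spread of 2-fold or more (vertical axis, %) in the same groups. Control library 3 lies above 0.3 up to about 50.7% GC and below 0 from 54.1% GC, control library 1 runs the other way, and wide spread is commonest at 48.9% GC.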

How the data were processed

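RNA from isolated small-intestinal epithelial cells was sequenced with Illumina libraries, per the labels' protocols. The authors deposited raw read counts per Ensembl gene. The submitters' processing notes name cutadapt 1.18, FastQC 0.11.8, STAR 2.6.1c, SAMtools 1.8, Subread 1.6.1 and GRCm38 (mm10). Their settings, including strand and reads with several mapping places, are not given in the sources used, which leaves antisense, overlapping and near-identical genes uncertain. Total counts of the 3 control libraries ran from 35686871 to 38454620, and their numbers, in accession order, only name them.

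CPM used each library's total count. TPM used the exon-union length from GENCODE M21 (GRCm38), which holds 55117 of the identifiers, matched without version suffix; 181 had no match. GC content is the median over annotated transcripts, since GC of the exon union could not be had without a genome. Genes of the mitochondrial chromosome were not analysed here. The nuclear chromosomes held practically all counted reads, so shares and ranks are those of nuclear genes. Trends with GC content and length were fitted by natural splines (6 and 5 degrees of freedom) to each library's log2 deviation. Dispersion came from edgeR 4.0.16 in R 4.3.3, with DESeq2 1.42.0 size factors as an alternative, and was checked on simulated data. No group was compared, so there is no hypothesis test.

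Members and the 33 gene lists were chosen with earlier results of these data known. Genes named are the 20 highest by TPM with a symbol that is not a predicted name, up to 6 members of each list, members at or near 0 of lists of other tissues, all members of the region and transcription factor lists, sex-linked genes, and the 10 widest and 10 evenest of those with a mean of at least 20 CPM. Sh2d7, Mcpt2, Pla2g4c, Rpl29, Cyp2b10, Epas1, genes with predicted names, list members beyond the first 6 and the motifs searched were chosen after their values were seen, as were the genes whose upstream stretch is shown. Some genes that the rule allows are not reported here.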

Additional observations from a re-analysis of the deposited data

How the results depend on the processing

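No paired analysis was possible because no groups were compared. Of 215 recomputed values 57 moved, counts by more than 1.5-fold and other values by 1 SD or more. The 215 include 99 list levels with 1 library left out, none of which could move. Leaving out 1 of 3 values always shifts their mean by less than 1 SD. The same holds for the share of the 100 most abundant genes with 1 library left out. These values therefore say nothing about stability. Only the trends with GC content could change sign, and none of them did. The order of libraries within a list could turn. By CPM, 3 of 4 Paneth cell genes with a 2-fold spread were highest in control library 3, whereas after removal of the GC and length trend the 4 such genes were all highest in control library 1. With at least 1 read in all 3 libraries as the only minimum, 18188 genes counted as expressed, 7061 of them spread by 2-fold or more and the lowest rank correlation was 0.975. With a minimum of 10 CPM these were 6445 genes, 1212 genes and 0.890. After removal of the GC and length trend, the biological coefficient of variation was 24.6% and 1463 genes spread by 2-fold or more. With 1 library left out, expressed genes ran from 11490 to 11810, the share of the 100 most abundant genes from 24.5% to 26.05%, the biological coefficient of variation from 25.7% to 34.6%, genes with a 2-fold spread from 868 to 2356, genes within 1.5-fold from 6445 to 8638 and the lowest rank correlation from 0.954 to 0.975; fewer libraries by themselves narrow a spread. The cause of the other shifts was not tested.

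Levels of lists depend on the length used. With median transcript length in place of exon union, the Paneth cell list averaged 51745 TPM, fat absorption 28387, the proximal list 5877 and the distal list 3757 TPM. Without division by length they summed to 27319, 31922, 5616 and 2759 CPM, so that fat absorption came before the Paneth cell list. With 1 library left out, the Paneth cell list averaged 113883 to 125532 TPM, fat absorption 45052 to 48953, the proximal list 7717 to 9346, the distal list 6617 to 8273 and the tuft cell list 328 to 680 TPM. GC of the longest transcript, an alternative chosen after seeing the data, kept the sign of each library's trend.

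With 3 libraries, the spread itself is poorly known, and a gene's rank among close neighbours cannot be told. Genes under the floor of 3 reads were not detectable at this depth. Sex-linked transcripts, regional markers and the trend with base composition differ between the same 3 libraries, and their parts cannot be told apart.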
